A study of Mus musculus with 32 samples.

Results

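Kinesins and cytoplasmic dynein, with the dynactin complex, are the motor proteins that carry cargo along microtubules. The 54 genes described here were the protein-coding genes in either of the deposited neurite enrichment tables whose symbol begins with Kif, Klc, Dync or Dctn followed by the family's number or subunit letter, out of 55573 genes in the count table and 15805 protein-coding genes in the enrichment tables. They comprised 3 kinesin-1 heavy chains, 4 kinesin light chains, 4 kinesin-2, 6 kinesin-3 and 2 neuronal kinesin-4 genes, 10 kinesins of cell division, 10 ciliary and other kinesins, 5 cytoplasmic dynein-1 subunits, 6 dynactin subunits and 4 dynein-2 subunits.

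The samples were mouse hippocampal neurons from newborn pups, pooled by litter over both sexes and grown on porous membrane inserts, so that cell bodies (soma) could be scraped from the top and axons and dendrites (neurites) from the bottom. Neurites also grow on top of the membrane, and the soma libraries can therefore contain neurite RNA as well. Wild-type (WT, C57BL/6) and Mettl3Flox/Flox cultures both received AAV-hSyn-Cre-P2A-dTomato on day in vitro (DIV) 7. In floxed cultures Cre removes a floxed exon of Mettl3, the gene of the m6A methyltransferase METTL3, and not the whole gene. It does so in cells that use the neuronal synapsin promoter, so that glia can retain the exon. These floxed, Cre-treated cultures are called Mettl3 KO. Synaptic activity was blocked in all cultures for 16 h by TTX (1 µM) together with D-AP5 (50 µM), after which the cells were left untreated (Ctrl) or depolarized with 55 mM KCl for 2 h at DIV 15. RNA-seq covered 8 groups of 2 libraries from distinct litters, 16 libraries in all, with 33789183 to 71394235 counts each. According to the paper, Ctrl and KCl cultures shared a litter, and the labels do not say which libraries did so. DART-seq, in which an APOBEC1-YTH fusion converts C to U next to m6A, was deposited as averages over libraries.

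In neurons, most kinesins walk towards the plus ends of microtubules, which point away from the cell body in axons, and cytoplasmic dynein-1 walks the other way. Kinesin-1 heavy chains (KIF5) carry mitochondria, vesicles and RNA granules, with light chains that bind cargo, and dynactin tethers dynein to its cargo. Kinesin-2 works in cilia and also carries neuronal cargo, dynein-2 works in cilia, kinesin-3 carries synaptic vesicle precursors and dense core vesicles, and a further group of kinesins builds and moves the mitotic spindle in dividing cells.

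The libraries differed in ways that bear on the comparisons. Mettl3 stood at 13.2 to 17.3 CPM (normalised counts scaled to library size) in WT soma and 8.90 to 12.5 CPM in WT neurites. In Mettl3 KO it stood at 6.11 to 11.6 and 3.88 to 7.90 CPM. By edgeR's quasi-likelihood test the log2 difference was -0.73 in untreated soma (adjusted p = 0.624) and -1.19 in untreated neurites (adjusted p = 0.423). These counts cover the whole gene, with exons that Cre does not remove, and so do not measure the deletion. The paper reports loss of the floxed exon, near complete removal of METTL3 protein and reduced m6A in the knockout neurons. Soma and neurites of insert 1 of the KCl-treated Mettl3 KO stood apart, with summed oligodendrocyte lineage markers of 3553 to 7039 CPM against 57.9 to 203 in the other 14 libraries, and neuronal markers of 1145 to 2003 CPM against 3420 to 6569. Summed over 10 astrocyte markers, the WT neurite libraries held 2029 to 3266 CPM and the WT soma libraries 1201 to 1637 CPM. Gfap alone was at 1219 to 1806 CPM in neurites and 524 to 670 CPM in soma, while Slc1a2 overlapped, at 218 to 258 and 236 to 281 CPM. Summed over 10 neuronal markers, the WT neurite and soma libraries held 5575 to 6569 and 4086 to 5420 CPM. Map2 alone was at 1436 to 1830 CPM in neurites and 464 to 627 CPM in soma. Snap25 overlapped, at 819 to 1085 and 859 to 1214 CPM. The median log2 value of the astrocyte markers, neurites against soma, was 0.82 untreated and -0.15 after KCl. That of the neuronal markers was 0.13 and 0.06. In such bulk samples, a change in the number of cells of a type and a change in RNA per cell cannot be told apart.

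Per kilobase of exon, the kinesin-1 heavy chains Kif5a and Kif5c had the highest mean levels of the motor RNAs in both compartments of untreated WT neurons, and the third heavy chain, Kif5b, was lower, at 51.8 RPKM in soma and 178 RPKM in neurites. In soma, Kif5a stood at 254 ± 19.7 RPKM (mean ± SD, n = 2) and Kif5c at 238 ± 10.04, close to Dctn3, a small dynactin subunit, at 224 ± 11.0 and to the light chain Klc1 at 219.6 ± 6.28. In neurites, Kif5a reached 983 ± 150.3 RPKM, Kif5c 741 ± 124 and Kif1a, the kinesin-3 of synaptic vesicle precursors, 347 ± 17.6, while Klc1 was at 302 ± 14.4 and Dctn3 at 253 ± 5.02. Within each untreated neurite library Kif5a was above Kif5c (877 against 653 and 1089.6 against 829 RPKM), whereas in soma their order differed between the libraries (240.3 against 245 and 268 against 231 RPKM). The 3 heavy chains made up 31.0 to 33.9% of the summed RPKM of the 54 genes in the WT soma libraries and 51.2 to 58.3% in the WT neurite libraries. The summed RPKM of the 6 dynactin genes was 426 and 418 in untreated WT soma and 473 and 448 in neurites, and that of the 5 dynein-1 genes was 137 and 138 in soma and 136 and 131 in neurites. The lowest motor RNAs of untreated WT soma were Kif14 (0.0334 RPKM) and Kif18a (0.0662 RPKM), both kinesins of cell division.

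The question of the first comparison was which RNAs are enriched in neurites relative to soma of untreated WT neurons. All 3 KIF5 genes were higher in neurites, and so were Kif1a, Kif4 and Kif26b. Kif5a (chr10:127225696-127263348, minus strand, GRCm38) was at 1679.6 and 1875 CPM in the soma libraries and at 6131 and 7616 CPM in the neurite libraries, an FC N/S of 3.70 (log2 1.89, SE 0.18, adjusted p = 0.000228). Both neurite libraries lay far above both soma libraries. Kif5c (chr2:49619298-49774778, plus strand) rose from 1753 and 1651 to 4664 and 5921 CPM (fold 2.98, log2 1.57, SE 0.14, adjusted p = 0.000160). Kif5b, the KIF5 gene that most cell types also express, rose from 422 and 406 to 1186 and 1660.1 CPM (fold 3.30, log2 1.72, SE 0.21, adjusted p = 0.000569). For all 3, every neurite library was above every soma library.

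Kif1a (chr1:93015464-93101951, minus strand) stood at 1413 and 1356 CPM in soma and at 3126 and 3357 CPM in neurites (fold 2.24, log2 1.16, SE 0.19, adjusted p = 0.00314). The other 5 kinesin-3 genes were not called, and Kif1b, which carries mitochondria and synaptic vesicle precursors, had a log2 value of 0.47 (adjusted p = 0.0577). Kif26b, an atypical kinesin, was at 31.6 and 33.2 CPM in soma and 64.8 and 76.3 CPM in neurites (fold 2.08, log2 1.06, SE 0.16, adjusted p = 0.00220). Kif4 (chrX:100625737-100727214, plus strand), a chromokinesin of dividing cells, had the largest value at low counts, with 1.87 and 2.80 CPM in soma against 7.85 and 14.5 CPM in neurites (fold 4.60, log2 2.20, SE 0.33, adjusted p = 0.00186). Both neurite libraries of Kif4 lay above both soma libraries, although they differed widely from each other. Kif15, a spindle kinesin, was the single gene called lower in neurites, at 7.54 and 7.23 CPM in soma and 5.35 and 3.84 CPM in neurites (1.68-fold lower, log2 -0.75, SE 0.18, adjusted p = 0.0188), and its call was lost without either soma library (adjusted p = 0.164 and 0.1501) or without neurite replicate 2 (adjusted p = 0.0958).

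**Figure D1:**
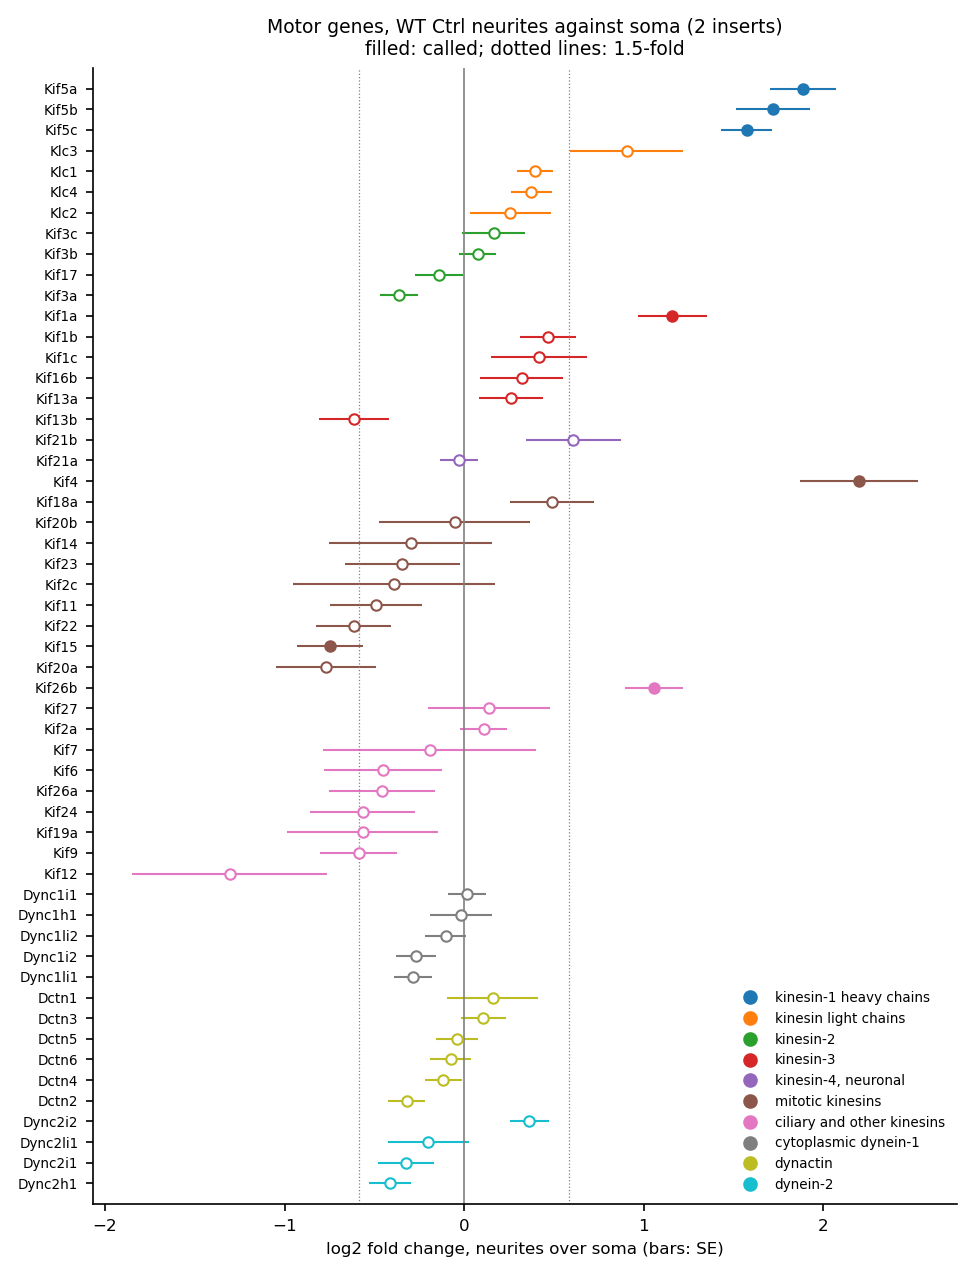
Log2 fold change of neurites over soma (horizontal axis, with SE) for the 54 motor genes in untreated WT neurons, coloured and grouped by family, with filled points for called genes and dotted lines at 1.5-fold. The 3 KIF5 genes lie between 1.57 and 1.89, Kif1a, Kif26b and Kif4 lie past the right line, and the dynein-1 and dynactin genes lie close to 0.

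In all, 7 of the 54 genes were called (1.5-fold, adjusted p of at most 0.05), against 13.6% of all 23200 genes tested. The 6 higher genes compare with 9.01% of all genes and the single lower one with 4.54%. By adjusted p alone 12 genes passed, against 19.5% of all genes, adding Klc1 (log2 0.39), Klc4 (0.38) and Dync2i2 (0.36) on the higher side and Kif3a (-0.36) and Dync2h1 (-0.41), the dynein-2 heavy chain, on the lower side. The median log2 value of the 54 genes was -0.05 and that of all genes -0.10. The median of the 3 heavy chains was 1.72 and that of the 4 light chains 0.39. Of the light chains, 0 were called by edgeR or DESeq2 and 3 had an unadjusted p under 0.05. Klc1 was at 876 and 912 CPM in soma and 1189 and 1271 CPM in neurites.

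None of the 15 dynein and dynactin genes was called by edgeR or by DESeq2, and 5 had an unadjusted p under 0.05 (34.5% of all genes had one). Dync1h1, the heavy chain that holds the motor domain, was at 302 and 289.8 CPM in soma and 317 and 296 CPM in neurites (log2 -0.02, SE 0.17). Dctn1, the p150 subunit that binds dynein and microtubules, was at 594 and 617 CPM in soma and 740.2 and 677 CPM in neurites (log2 0.16). The dynein-1 values on the log2 scale ran from -0.28 (Dync1li1, a light intermediate chain) to 0.02 (Dync1i1, an intermediate chain), and the dynactin values from -0.32 (Dctn2, adjusted p = 0.0501) to 0.16. For kinesin-2, Kif3a, its core motor subunit, was at 227 and 226 CPM in soma against 191 and 179 CPM in neurites, and its partners Kif3b (0.08) and Kif3c (0.17) and the separate kinesin-2 motor Kif17 (-0.14) were not called.

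**Figure D2:**
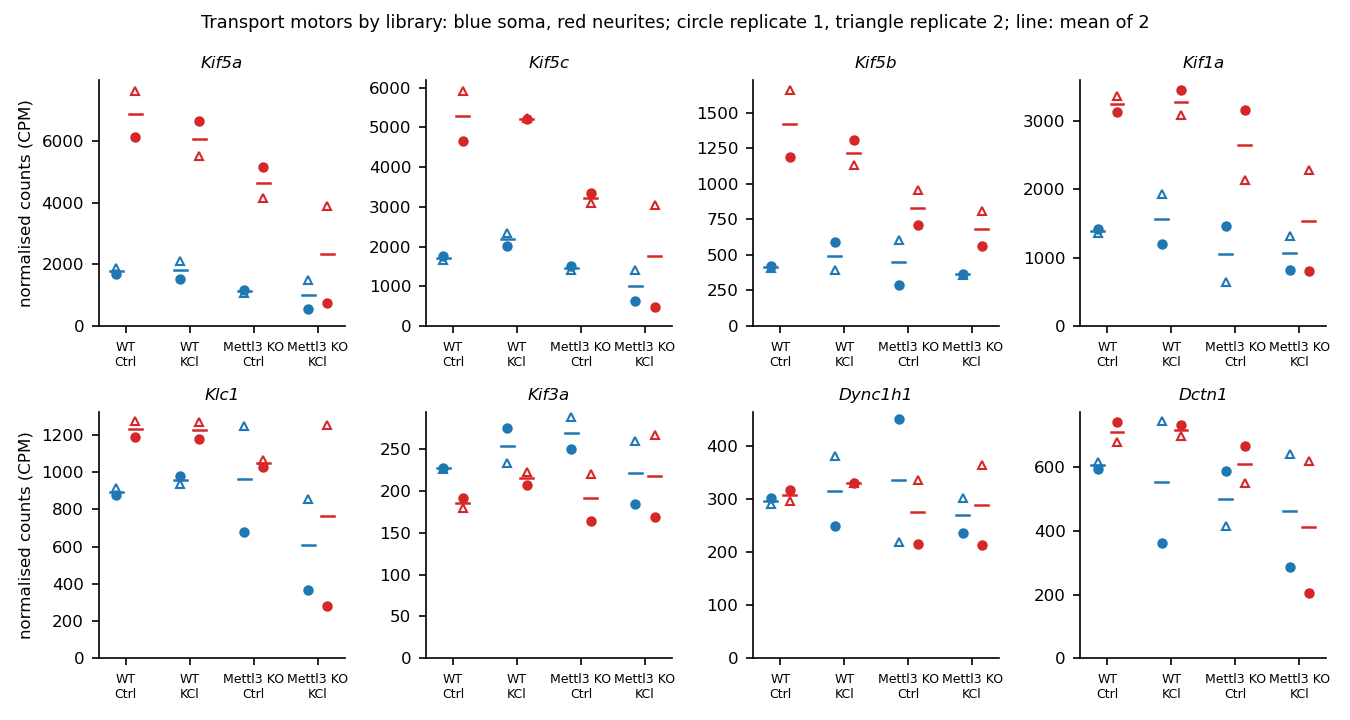
CPM of 8 transport motor genes in each library (vertical axis from 0) by genotype and treatment (horizontal axis), with soma in blue, neurites in red, a circle for replicate 1, a triangle for replicate 2 and a line at the mean of 2. Kif5a in WT soma lies between 1538 and 2115 CPM and in WT neurites between 5511 and 7616 CPM, while Dync1h1 spans 248 to 380.4 CPM over all 8 WT libraries.

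These calls rest on the 8 WT libraries, whose replicates vary less than those of the Mettl3 KO groups (SD of the log2 ratio between replicates 0.188 to 0.372 against 0.495 to 1.19). With the spread estimated over all 16 libraries, 0 of the 54 genes and 0 of all genes were called, and over 14 libraries, without KCl-treated Mettl3 KO insert 1, Kif5a and Kif5c were called (adjusted p = 0.0226 for each). In these untreated libraries the astrocyte markers summed to 1201 and 1218 CPM in soma and 3266 and 2029 CPM in neurites. Of this, Gfap made up 524 and 534 CPM in soma and 1806 and 1219 CPM in neurites. A list of fibroblast and vascular markers summed to 18.9 and 13.9 CPM in soma and 35.4 and 84.4 CPM in neurites. Within it Col1a1 was at 7.50 and 4.40 against 15.4 and 48.1 CPM, and Pecam1 at 1.55 and 1.24 against 1.53 and 2.26 CPM. The part of such cells in the neurite values was not tested. Reads that map to several genes were counted for each, so KIF5 values can include reads shared within the family. Of the exon bases of Kif4, 15.1% overlap Pdzd11 on the other strand, whose own log2 value was -0.14. Kif5b (with Gm17036 and AC113003.1) and Kif26b (with Gm16564) also share exon bases with antisense genes, to an extent not measured here.

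A list of 54 further genes of the pathway (dynein light chains, dynein regulators, kinesin cargo adaptors and other kinesins) gave 7 higher and 2 lower among 53 tested, against 9.01% and 4.54% of all genes. The highest were Kifc2 (log2 1.32, SE 0.26), a minus-end-directed kinesin of neurons, Trak2 (1.28, SE 0.18), which links mitochondria to kinesin-1, and Nde1 (1.04, SE 0.24), a dynein regulator. Mapk8ip1, a scaffold that binds kinesin light chain, was at 1.01 and Plekhm2, which links lysosomes to kinesin-1, at 0.89. The 2 lower genes were Kifc1 (-1.10), a spindle kinesin, and Hook2 (-0.73), a dynein adaptor.

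After KCl, neurites held more of the same KIF5 genes than soma. Kif5a was at 1538 and 2115 CPM in soma and 6636 and 5511 CPM in neurites (log2 1.75, adjusted p = 0.000524), Kif5c had a log2 value of 1.27 (adjusted p = 0.000626) and Kif5b one of 1.32 (adjusted p = 0.00293). Kif26b (1.00, adjusted p = 0.00386) and Kif1a (1.07, adjusted p = 0.00578) were also called higher. Kif11, the kinesin that pushes spindle poles apart, was called lower, at 5.31 and 4.35 CPM in soma and 2.85 and 2.45 CPM in neurites (-0.85, adjusted p = 0.0415). Kif11 lost this call without soma replicate 1 (0.155) or either neurite library (0.129 and 0.204), and Kif1a without neurite replicate 1 (0.0596). The 6 calls of 54 compare with 9.60% of all genes (6.87% higher and 2.73% lower). Without replicate 2 of KCl-treated WT soma, 12 genes were called, among them Dctn1, which stood at 363 and 745 CPM in the 2 soma libraries. With 16 libraries none was called, and with 14 libraries Kif5a alone was. Kif4 (0.96, adjusted p = 0.0677) was not called but passed with DESeq2 (adjusted p = 0.0107), without a filter (0.000386), with the libraries of the comparison alone (0.0240) and with a block by insert (0.0284). Among the pathway genes, Kifc2 (1.48), Trak2 (1.15), Plekhm2 (1.09), Mapk8ip1 (0.86) and Bicd2 (0.67) were called higher, 5 of 54 against 6.87% of all genes, and the dynein light chain gene Dynlrb2 (-1.42) lower, 1 of 54 against 2.73%. Dynlrb2 is also on the list of 8 markers of ciliated ependymal cells, of which 4 were called lower in the same comparison (median log2 -1.15), and the part of such cells in its value was not tested.

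The next question was how depolarization changes RNA levels in each compartment. Kif18a (chr2:109280738-109341747, plus strand), a kinesin that limits chromosome oscillation in mitosis, showed the largest change of any motor gene in WT soma and in WT neurites. It was at 0.666 and 0.636 CPM in untreated WT soma and 18.3 and 13.5 CPM after KCl (fold 24.4, log2 4.61, SE 0.22, adjusted p = 3.42e-07). In neurites it went from 0.969 and 0.953 to 11.9 and 12.4 CPM (fold 13.4, log2 3.75, SE 0.21, adjusted p = 2.81e-06). In raw counts these were 52 and 40 untreated against 985 and 952 in soma. No KCl library overlapped an untreated one in either compartment. Kif18a shares 11 exon bases (0.112%) with Mettl15 on the other strand, whose log2 value was -0.05 in soma and 0.09 in neurites.

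Kif11 rose as well, from 2.04 and 1.56 to 5.31 and 4.35 CPM in soma (fold 2.68, log2 1.42, SE 0.24, adjusted p = 0.00318) and from 1.51 and 1.16 to 2.85 and 2.45 CPM in neurites (fold 2.09, log2 1.06, SE 0.26, adjusted p = 0.0287). Kif4 rose in soma, from 1.87 and 2.80 to 5.57 and 6.06 CPM (fold 2.51, log2 1.32, SE 0.32, adjusted p = 0.0203). In neurites its 7.85 and 14.5 CPM untreated overlapped the 13.0 and 9.34 CPM after KCl (log2 0.09, adjusted p = 0.900). Kif1c, a kinesin-3 of many cell types, fell in soma, from 4.52 and 4.89 to 1.71 and 2.64 CPM (2.14-fold lower, log2 -1.10, SE 0.27, adjusted p = 0.0230), and had a log2 value of -0.79 in neurites (adjusted p = 0.111).

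**Figure D3:**
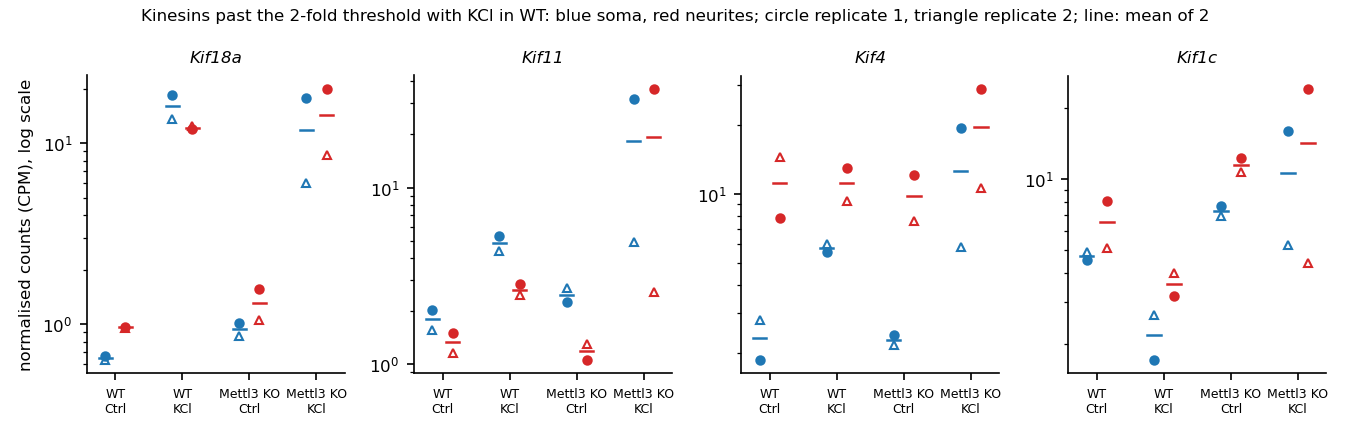
CPM on a log axis of the 4 kinesins past the 2-fold threshold with KCl in WT neurons, by genotype and treatment, with soma in blue, neurites in red, a circle for replicate 1, a triangle for replicate 2 and a line at the mean of 2. Kif18a lies below 1 CPM in all 4 untreated WT libraries and at 11.9 to 18.3 CPM in the 4 KCl-treated ones.

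The 4 calls among 54 genes in soma compare with 6.70% of 24060 genes, and the 2 among 53 in neurites (Kif12 was too low to test) with 5.03% of 22059 genes (3.33% higher). Both directions occurred in soma, with 3 higher (3.74% of all genes) and 1 lower (2.96%). By adjusted p alone, 6 of 54 passed in soma (13.2% of all genes) and 5 of 53 in neurites (8.83%). Dync1i2, a dynein intermediate chain, was among the higher ones in soma (0.38, adjusted p = 0.0456) and neurites (0.56, adjusted p = 0.0105), Dync1li1 (0.39) and Dync2h1 (0.44) were higher in neurites, and Kif13b (-0.79), a kinesin-3, was lower in soma. For the KIF5 genes the log2 value with KCl was 0.04 in soma and -0.10 in neurites for Kif5a, 0.36 and 0.06 for Kif5c, and 0.25 and -0.14 for Kif5b, with adjusted p-values of 0.118 to 0.914. Among the pathway genes, Ndel1, a dynein regulator, rose 3.43-fold in soma (log2 1.78, SE 0.12, adjusted p = 4.62e-06) and 3.06-fold in neurites (log2 1.61, SE 0.12). Bicdl2, a dynein adaptor, rose in soma (log2 3.53, SE 0.64, adjusted p = 0.00455) and Kifc1 in neurites (1.27, SE 0.32). These were 2 of 54 pathway genes called higher in each compartment, against 3.74% of all genes in soma and 3.33% in neurites.

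Kif18a kept its call in both compartments under every alternative run, including those with 16 and 14 libraries. In soma, Kif4 lost its call without untreated replicate 1 (adjusted p = 0.162) or KCl replicate 2 (0.0568), and Kif1c without either untreated library (0.134 and 0.179) or KCl replicate 1 (0.119). In neurites, Kif11 lost its call without untreated replicate 2 (0.116) or either KCl library (0.122 and 0.0910). The summed markers of dividing cells were 56.4 and 57.3 CPM in untreated WT soma and 98.7 and 95.4 CPM after KCl. Most of this came from Pcna (37.5 and 38.6 against 77.4 and 71.6 CPM), a replication clamp also used in DNA repair. Top2a, a topoisomerase of dividing cells, rose from 0.499 and 0.493 to 0.801 and 1.19 CPM. The marker Mki67 overlapped (3.78 and 2.38 against 2.98 and 4.58 CPM). Of 10 such markers tested, 0 were called with KCl in soma and 2 were called higher in neurites (3.33% of all genes). The 8 kinesins of cell division other than Kif4 and Kif18a, with Kif11 among them, summed to 17.5 and 17.0 CPM in untreated soma. After KCl they summed to 23.5 and 22.9 CPM, and in neurites they went from 13.1 and 10.4 to 18.4 and 16.3 CPM. The part of dividing cells in these values was not tested.

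An 8-base cAMP response element, TGACGTCA, was searched in 300-base RefSeq promoter windows (build GRCm38.p6) because cAMP response elements are a known element of genes induced by neuronal activity. It was found in 5 of 47 promoters of 41 matched motor genes, and in 1.79% of 32851 promoters. The letters read the same on both strands. A match is a description and not a shown binding site. The 2 windows below belong to the motor gene with the largest KCl change in WT neurons and to a KIF5 gene not called with KCl, with the motif in capitals.
Kif18a, chr2:109280760-109280783, plus strand, GRCm38.p6, from base 31 after the start: tgacgtgcTGACGTCAtccgaacg
Kif5c, chr2:49619252-49619275, plus strand, GRCm38.p6, 26 bases before the start: ctctgcagTGACGTCAccgtgccg
The other 3 matches were in the promoters of Klc1, Dctn3 and Kif17, none of which was called with KCl. The AP-1 motif TGANTCA, searched on both strands, was in none of the 47 motor promoters and in 7.81% of all promoters.

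The comparison of FC N/S between KCl and Ctrl used the same libraries as the comparisons above. Here 4 of 54 genes passed the unadjusted threshold (1.5-fold, p of at most 0.05), against 3.36% of all genes (2.00% higher and 1.35% lower), and no gene of all 23200 passed after adjustment. Of these 4, Kif4 had the largest value, with a log2 N/S of 2.20 untreated and 0.96 after KCl, a change of -1.22 (SE 0.31, unadjusted p = 0.00342, adjusted p = 0.999). Kif18a changed by -0.85 (unadjusted p = 0.0236), Kif13b by 0.80 (unadjusted p = 0.0282) and Kif26a, an atypical kinesin, by 0.88 (unadjusted p = 0.0480) in the same edgeR test. The KIF5 genes had changes of -0.12 (Kif5a), -0.28 (Kif5c) and -0.36 (Kif5b), none past the threshold.

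Mettl3 KO was compared with WT in untreated neurons over the fit of 16 libraries. The genotypes came from different mice and litters, so loss of Mettl3 and a difference of line or litter cannot be told apart. In soma 0 of 54 motor genes were called by edgeR, against 0.185% of all genes, 3 had an unadjusted p under 0.05 (8.97% of all genes), and DESeq2 called 1. In neurites 0 of 53 were called, against 0.188% of all genes, 1 had an unadjusted p under 0.05 (7.47% of all genes), and DESeq2 called 1. The gene that DESeq2 called was Dctn5, a subunit of the pointed end of dynactin, in both compartments (adjusted p = 0.00769 in soma and 0.0257 in neurites by DESeq2). Dctn5 stood at 90.8 to 113 CPM in the 8 WT libraries and at 43.6 to 61.4 CPM in the 8 Mettl3 KO libraries. Soma and neurites of an insert share a culture, so these are not 8 independent samples per genotype. The share of all genes with such a gap was not counted. Its log2 value was -0.84 in soma (SE 0.21, adjusted p = 0.191 by edgeR) and -0.76 in neurites (SE 0.20, adjusted p = 0.252). In soma it was called when KCl-treated Mettl3 KO insert 1 was left out (adjusted p = 0.0395).

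The KIF5 genes did not pass the test between genotypes. In untreated neurites the 10 neuronal markers summed to 4027 and 4244 CPM in Mettl3 KO against 5575 and 6184 CPM in WT (median log2 -0.50). Of these, Map2 alone was at 549 and 637 CPM in KO against 1436 and 1830 CPM in WT. The paper reports reduced neurite enrichment of Map2 itself in Mettl3 KO neurons. Tubb3 was higher in KO neurites, at 947 and 862 against 811 and 683 CPM. In untreated soma the neuronal sums overlapped, at 3420 and 4619 CPM in KO and 4086 and 4276 CPM in WT (median log2 -0.16). The 10 astrocyte markers summed to 2472 and 2059.9 CPM in untreated KO soma against 1201 and 1218 CPM in WT (median log2 0.97), and to 7151 and 2933 CPM in KO neurites against 3266 and 2029 CPM (median log2 0.84); their part in these values was not tested. Kif5a was at 5146 and 4149.7 CPM in KO neurites, Kif5c at 3361 and 3091 CPM, and Kif5b at 709.5 and 956 CPM, against 1186 and 1660.1 CPM in WT (log2 -0.79, adjusted p = 0.675). In the change of FC N/S between genotypes, 2 of 54 genes passed the unadjusted threshold against 4.19% of all genes (2.91% higher and 1.28% lower), and none after adjustment. These were Kif5b (-0.83, SE 0.35, unadjusted p = 0.0417, adjusted p = 0.934, by edgeR) and Kif2c, a microtubule-depolymerizing kinesin of mitosis, at under 1 CPM in these 8 libraries (1.43, SE 0.51, unadjusted p = 0.0219). Of the pathway list, 5 of 53 genes passed this unadjusted threshold, all higher and all among the 9 dynein light chains (Dynll1, Dynlt1a, Dynlt1b, Dynlt1c and Dynlt1f, log2 1.06 to 1.76, adjusted p = 0.934 for each by edgeR), with a median log2 change of 1.18 over the 9 and -0.03 over all genes. The Dynlt1 genes are near-identical copies that share reads. Dynll1, which links dynein to cargo, stood at 497 and 73.8 CPM in KO soma and 721 and 483 CPM in KO neurites, against 323 and 335 CPM in WT soma and 299 and 278 CPM in WT neurites. Dynlt1b was at 38.9 and 8.47 CPM in KO soma, 97.3 and 49.8 CPM in KO neurites, 186 and 172 CPM in WT soma and 240.1 and 228 CPM in WT neurites. For both genes the second KO soma library was the lowest of the 8. Within the KO libraries alone, neurites over soma gave log2 values of 1.97 for Kif5a, 1.24 for Kif1a, 1.08 for Kif5c and 0.84 for Kif5b. None of the 54 was called there by edgeR or DESeq2, and 2 had an unadjusted p under 0.05 (5.49% of all genes). Replicates of untreated KO soma differed widely, as for Dctn3 at 246 and 51.4 CPM. After KCl in KO soma, Kif18a had a log2 value of 3.67 (SE 0.74, adjusted p = 0.387 by edgeR), with 1.02 and 0.858 CPM untreated against 17.7 and 6.04 CPM. Without the first of these KCl libraries, which belongs to the insert that stood apart, the log2 value was 2.73 (adjusted p = 1.00). The KCl-treated libraries lay above the untreated ones, and DESeq2 called the gene (adjusted p = 6.56e-05), while edgeR called 0 of 54 and 6 had an unadjusted p under 0.05 (6.60% of all genes).

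KCl-treated Mettl3 KO insert 1 differed from all other libraries in the motor genes too. In both of its libraries 23 of 54 motor genes lay above all other 14 libraries and 11 (20.4%) lay below, against 18.8% of 23335 genes above and 15.2% below. The 23 included 9 of the 10 kinesins of cell division, Kif18a being the exception. Kif22, a chromokinesin, was at 30.7 and 36.7 CPM against at most 3.39 CPM elsewhere, and Kif2c at 19.1 and 27.0 CPM against at most 0.991. Kif5a, at 543 and 748 CPM, was below every other library (at least 1085 CPM). The summed dividing cell markers of this insert were 475 to 554 CPM against 42.9 to 116 in the other 14 libraries, and the glial markers given above moved with them; their part in these values was not tested.

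**Figure D4:**
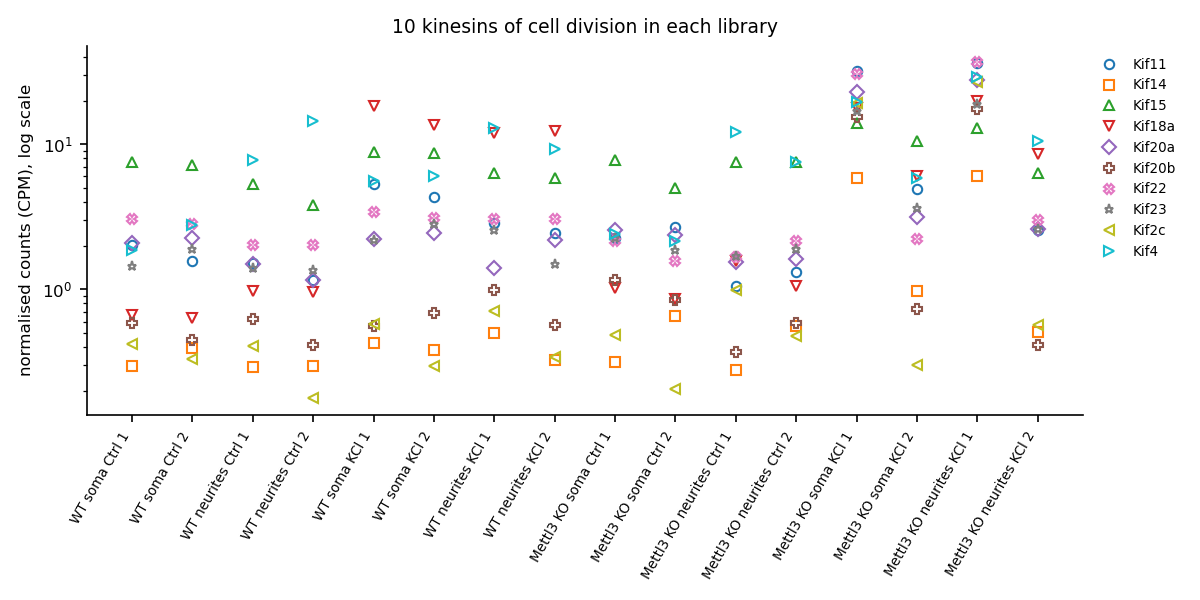
CPM on a log axis of the 10 kinesins of cell division (one symbol per gene) in each of the 16 libraries. Soma and neurites of the first KCl-treated Mettl3 KO insert lie above the rest, and Kif18a is at 6.04 to 19.9 CPM in all KCl-treated libraries and at most 1.57 CPM in the untreated ones.

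DART-seq gives each RNA a score, defined by the authors as the sum of the average fraction of C-to-U conversion over its called m6A sites. The single-site fractions given below do not add up to these scores. For Kif5b they sum to 0.893 against a WT score of 0.729, and for Kif3c to 0.755 against 0.820. The cause was not tested. Of the 54 motor RNAs, 25 had a score among 5643 RNAs, with 188 of 18231 sites, all within the RAC motif (100 AAC and 88 GAC) that the authors' selection required. The 25 were the more abundant, with a median mean WT level of 157 CPM against 2.81 CPM for the 29 without a score. By annotation 135 sites were in coding sequence, 43 in the 3′UTR, 8 in the 5′UTR and 2 outside annotated coding transcripts, and 49 were in the terminal exon.

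Kif3c, a kinesin-2 subunit, had the highest WT score, 0.820 over 14 sites, followed by Kif5b (0.729, 16 sites), Kif3a (0.692, 13 sites), Dync1li2 (0.687, 12 sites), Dync1h1 (0.644, 23 sites) and Kif1b (0.560, 17 sites). The 2 most converted Kif5b sites, at 16.9% and 15.9%, were in its 3′UTR. Kif5a (0.0989, 7 sites) and Kif5c (0.0978, 5 sites) had low scores beside Kif5b. The lowest was Klc1, at 0.00636 from 1 site. Called sites are averages over libraries and carry no replicate error, so the order of close scores is not tested. The sites below are those with the highest conversion in 7 motor RNAs with high scores or of the KIF5 family, with the edited C as the last capital of the RAC motif, on the gene's strand in build GRCm38.
Kif2a, chr13:106961185-106961205, minus strand, 3′UTR, 26.5% conversion: tgtttattAACtcaccaaaat
Dync1li2, chr8:104420030-104420050, minus strand, 3′UTR, 16.6% conversion: cagatagcAACagttaagacc
Kif3a, chr11:53602621-53602641, plus strand, outside annotated coding transcripts, 16.1% conversion: atcttggtGACgtcaaatttc
Dync1h1, chr12:110629356-110629376, plus strand, coding sequence, 11.6% conversion: acctcttcAACaaggtcaagg
Kif3c, chr12:3367344-3367364, plus strand, coding sequence, 8.80% conversion: tggagaagAACatggagaatt
Kif5a, chr10:127248231-127248251, minus strand, coding sequence, 3.50% conversion: tccccccaAACaccactcagg
Kif5c, chr2:49701091-49701111, plus strand, coding sequence, 2.52% conversion: gatgtttgGACagaggtgcgt

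The site in Kif2a, a microtubule-depolymerizing kinesin of neurons, had the highest conversion of all 188. The median of the motor sites was 3.13%, against 3.54% over all called sites. Its score of 0.531 came from 5 sites. The median score was 0.188 in the motor RNAs and 0.103 over all RNAs, with a median of 5 sites against 2.

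The paper states that its soma and neurite editing averages each include both Ctrl and KCl-treated samples. Scores of motor RNAs were mostly higher in neurites than in soma. This held for 22 of the 25 RNAs (88.0%), against 68.8% of all RNAs, and the median ratio of the neurite to the soma score was 1.67 against 1.30 over all RNAs. Kif3c had 0.552 in soma and 1.12 in neurites, Kif2a 0.337 and 0.753, and Kif5b 0.565 and 0.820. The 3 with a lower score in neurites were Dctn4 (0.350 in soma and 0.229 in neurites), Dync1i2 and Dync1li1. Of the 10 scored dynein and dynactin RNAs, 7 had a higher score in neurites, as did all 15 scored kinesin RNAs. For Kif5a the scores were 0.0864 and 0.104. In the Mettl3 KO the score was lower in each of the 25 RNAs, with a median WT to KO ratio of 2.72 (range 2.04 to 13.1) and 3.10 over all RNAs with a KO score; the sites were selected by their depletion in the KO.

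**Figure D5:**
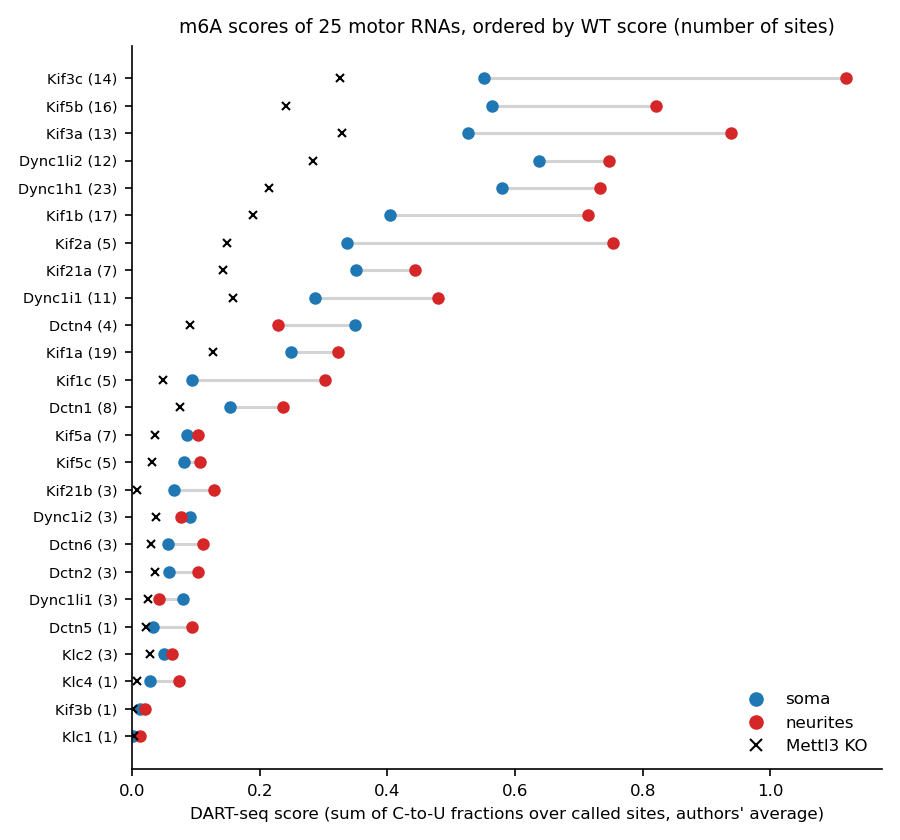
DART-seq score (horizontal axis, the sum of C-to-U fractions over called sites, as the authors' averages) of 25 motor RNAs in order of the WT score, with the number of sites in brackets. Soma is blue, neurites are red and Mettl3 KO is a black cross, and neurites lie right of soma in 22 RNAs.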

How the data were processed

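RNA was extracted from soma and neurites of 2 inserts per group, and libraries were made from 50 ng of total RNA. The authors trimmed reads with Flexbar, aligned them to mm10 with STAR 2.7.7a and counted them per Ensembl gene with featureCounts 2.0.1, without strand and with reads of several positions counted at each; the deposited values are raw counts. The deposited DART-seq tables hold scores and the fraction of C-to-U conversion per site, averaged by the authors over libraries, with sites called against Mettl3 KO; the authors required a minimum of unique reads at each site, the depth behind single sites was not analysed here, and the labels and the methods state different incubation times. The deposited fold changes and p-values were not used.

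The 37 mitochondrially encoded genes were left out and genes had to average 10 counts or more over the compared libraries. Counts were tested with edgeR 4.0.16 (quasi-likelihood, TMM, Benjamini-Hochberg) in R 4.3.3. Comparisons within WT were fitted to the 8 WT libraries, between genotypes to 16, and within Mettl3 KO, added after seeing the data, to 8. Changes in neurite enrichment had 1 term per insert. The other tests had no term for insert or litter and treated their libraries as independent. Called means 1.5-fold (2-fold for KCl) with an adjusted p of at most 0.05, and for changes in enrichment 1.5-fold with an unadjusted p of at most 0.05. CPM was scaled with TMM factors over all 16 libraries, and RPKM was the same per kilobase of exon. Each test used factors from the libraries of its own fit, so a log2 value near 0 can differ in sign from the CPM. DESeq2 1.42.0 was an alternative, beside RLE scaling, other filters, other sets of libraries, a replicate block and leaving out each library. Scripts were tested on simulated data.

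Soma and neurites of 1 insert come from the same culture, and the replicate number was read as the insert. The correlation of their deviations was -0.115 and 0.0625 in WT and 0.0379 and 0.873 in Mettl3 KO (Ctrl and KCl). Between Ctrl and KCl libraries of the same replicate number it was 0.0427 in soma and -0.0481 in neurites of WT. In Mettl3 KO it was 0.140 and 0.163. Genes named in the text are those called, the main transport motors, the 6 highest DART-seq scores and the highest and lowest of each list, with a few others chosen after their values were seen, such as Kif5a and Kif5c among the DART-seq sites. The members and gene lists were chosen with earlier results of these data known. Sequences are from RefSeq promoters and the GRCm38 genome.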

Additional observations from a re-analysis of the deposited data

Results flagged for a closer look

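A total of 6 changes in neurite enrichment between groups passed the unadjusted test of the difference itself (1.5-fold, p of at most 0.05 by edgeR's quasi-likelihood test), and none passed after adjustment. With KCl in WT neurons these were Kif4 (-1.22, unadjusted p = 0.00342), Kif18a (-0.85, unadjusted p = 0.0236), Kif13b (0.80, unadjusted p = 0.0282) and Kif26a (0.88, unadjusted p = 0.0480) on the log2 scale, with an adjusted p of 0.999 for each. Between Mettl3 KO and WT in untreated neurons they were Kif2c (1.43, unadjusted p = 0.0219) and Kif5b (-0.83, unadjusted p = 0.0417), with an adjusted p of 0.934 for each. Kif4 passed in all 8 fits that left out a library (-1.56 to -0.88), whereas Kif18a did so in 4, Kif13b in 3, Kif26a in 4, Kif2c in 4 and Kif5b in 3.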

How the results depend on the processing

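Of 393 values of single genes under an alternative, 303 kept their direction and side of the threshold, 84 no longer passed, 6 newly passed and 0 reversed. The 7 motor genes called in untreated WT neurites against soma became 0 with 16 libraries and 2 with 14, and the 6 after KCl became 0 and 1; the wider spread of the Mettl3 KO libraries enters these fits. With KCl in WT soma, 4 became 1 and 2, and in WT neurites, 2 became 1 and 1. In neurites the count was also 1 with a minimum mean count of 100 and with the libraries of the comparison alone. For the change of enrichment with KCl, 4 became 2 with 16 libraries; the fit with the libraries of the comparison alone is the same 8 libraries. Against WT, Mettl3 KO soma went from 0 to 1 with DESeq2 and with 14 libraries, and neurites from 0 to 1 with DESeq2. The change of enrichment in Mettl3 KO went from 2 to 5 without a filter, 1 with a minimum mean count of 100, 0 with the libraries of the comparison alone, 0 with no replicate block and 1 with 14 libraries. With KCl in Mettl3 KO soma, 0 became 8 without a filter, 1 with DESeq2 and 1 with 16 libraries. The cause was not tested.

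Leaving out 1 library gave 6 to 8 calls for untreated WT neurites against soma, 4 to 12 after KCl (12 without replicate 2 of KCl-treated soma), 2 to 4 for KCl in soma (2 without untreated replicate 1) and 1 to 2 in neurites (1 without either KCl-treated library). It gave 3 to 7 for the change with KCl (7 without replicate 2 of KCl-treated soma or of KCl-treated neurites), 0 to 3 for Mettl3 KO soma (3 without untreated KO replicate 1) and 0 to 0 for KO neurites. For the change in Mettl3 KO it gave 0 to 8, where 7 of 8 libraries moved the count, and 0 to 0 within Mettl3 KO. In these fits the lone library of a group is assumed to vary like the other groups.

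A replicate block gave 7 and 6 calls for neurites against soma, 4 and 2 for KCl, and 0 and 0 for Mettl3 KO. A block by insert gave 7 and 6, with Kif11 lost (adjusted p = 0.0535) and Kif4 gained (adjusted p = 0.0284), and the crossed pairing of the untreated WT inserts, added after seeing the data, 7, 4 and 2. The DART-seq median of 0.188 became 0.252 when summed over the site list, and 5 sites when sites were counted either way. With 2 libraries per group, genes near 1 CPM such as Kif2c are the least precise.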
